A study of Mus musculus with 11 samples.

Results

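Cytokine receptor genes were described as a set of 37 genes chosen by symbol, of the 54347 genes in the count table. All 37 were present in the table, and 31 passed the filter on low counts and were tested. The other 6, Il2ra, Il2rb, Il7r, Il13ra1, Lifr and Osmr, had too few counts and are given as counts. The RNA came from bone marrow of 4 female C57BL/6NTac mice, an inbred strain, with no treatment, genotype or age in the labels. Long-term haematopoietic stem cells (LT-HSCs), gated after lineage depletion as CD150+ CD48- cells with Sca-1 and c-kit, were divided by the sialomucin endomucin into EMCN+ (n = 4, mice 1 to 4) and EMCN- fractions (n = 3, mice 1, 2 and 4). The submitters had removed 1 EMCN- library for its quality. Granulocyte-monocyte progenitors (GMPs, n = 4, mice 1 to 4) were the more differentiated population, and the samples of a mouse come from the same animal. Each LT-HSC sample held 3000 to 5000 cells; a cell number for GMPs was not given in the sources used here.

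Cytokine receptors carry signals from secreted proteins into the cell. Most in this set are type I or type II receptors, built of a ligand-binding chain and a shared signalling chain that activates JAK kinases and STAT factors. Kit, Flt3 and Csf1r are instead receptor tyrosine kinases, the IL-1 and IL-18 receptors signal through MyD88, and the TNF receptors through TRAF adaptors. Stem cells of the marrow are known to depend on Kit, whereas the receptors for G-CSF, GM-CSF and M-CSF are known for guiding granulocyte and monocyte formation.

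The libraries held 3.63 to 11.1 M estimated counts, and levels are given as counts per 1000000 (CPM) on library sizes corrected by the trimmed mean of M-values (TMM), where 1 count was worth 0.0697 to 0.235 CPM. The labelled cell types carried their markers: 8 LT-HSC markers, such as Procr and Mecom, summed to 1011 to 1205 CPM in EMCN+, 673 to 831 CPM in EMCN- and 25.6 to 29.2 CPM in GMP libraries, and 8 GMP markers to 486 to 689, 644 to 710 and 17400 to 21560 CPM. The LT-HSC markers included Slamf1 (CD150) and Ly6a (Sca-1), which the gate itself used, at means of 26.8 and 25.2 CPM in EMCN+. Of the GMP markers Mpo had a mean of 0.981, 3.85 and 11440 CPM, and most of their sum in LT-HSCs was Calr, with means of 543.9 and 648 CPM. Markers of T and NK cells summed to 5.30 to 7.74, 5.81 to 8.69 and 131 to 140 CPM in EMCN+, EMCN- and GMP libraries, with Cd3e and Ncr1 at 0 in all 11 and Nkg7 at a mean of 133.5 CPM in GMPs. Those of B cells summed to 7.43 to 11.4, 6.34 to 13.3 and 19.2 to 24.4 CPM, of endothelium to 152 to 167, 120 to 149 and 66.3 to 80.8 CPM, and of erythroid cells to 15.4 to 19.4, 10.3 to 11.3 and 9.62 to 39.3 CPM. Among the endothelial markers Pecam1, Esam, Egfl7 and Emcn, the gene of the sorting protein, had means of 45.95, 41.8, 32.75 and 26.2 CPM in EMCN+. Kdr had 8.12, Flt4 1.71, Cldn5 1.32, Cdh5 0.806 and Plvap 0.181 CPM there. In EMCN- Pecam1, Esam, Egfl7 and Emcn had 48.2, 39.1, 27.4 and 14.4 CPM. Kdr had 4.557, Flt4 0.5429, Cdh5 0.1803 and Plvap 0.5061 CPM in EMCN-, and Cldn5 was at 0 in every EMCN- library. The means of Kdr, Flt4, Cdh5 and Cldn5 were lower in EMCN- than in EMCN+, and that of Plvap was higher. Fold changes and adjusted p-values come from edgeR's quasi-likelihood test, with Benjamini-Hochberg adjustment over 14915 genes and a threshold of 0.05, and errors after ± are standard errors of log2 fold changes. In bulk RNA, fewer cells that express a gene and less RNA per cell cannot be told apart. Both LT-HSC fractions were compared with the same GMP libraries, so the 2 comparisons share their controls.

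Several receptors lie side by side in the genome, and neighbours of the IL-1 receptor family on chromosome 1 differed widely in level. Il1r1 (chr1:40225080-40317257), Il1rl1 (chr1:40429570-40465415), Il18r1 (chr1:40465552-40500854) and Il18rap (chr1:40515362-40551705) all lie on the plus strand of GRCm38, with gaps of 112 kb, 0.136 kb and 14.5 kb between them. The 250 or fewer bases before the start sites of Il1r1, Il1rl1 and Il18rap are shown because Il1r1 was higher in LT-HSCs and its neighbour Il1rl1 was nearly absent from them. They come from RefSeq on GRCm38.p6, plus strand, 5′ to 3′, and capitals mark matches on either strand to the letters GATAA (GATA factors), TTGCNNAA (C/EBP) or GAGGAA (PU.1).
Il1r1, first start, chr1:40224830-40225079: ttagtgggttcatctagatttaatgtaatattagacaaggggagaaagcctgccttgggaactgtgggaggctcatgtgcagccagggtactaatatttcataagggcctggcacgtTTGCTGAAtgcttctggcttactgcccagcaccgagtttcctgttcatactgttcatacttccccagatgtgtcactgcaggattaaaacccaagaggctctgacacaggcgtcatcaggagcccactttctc
Il1rl1, first start, chr1:40429320-40429569: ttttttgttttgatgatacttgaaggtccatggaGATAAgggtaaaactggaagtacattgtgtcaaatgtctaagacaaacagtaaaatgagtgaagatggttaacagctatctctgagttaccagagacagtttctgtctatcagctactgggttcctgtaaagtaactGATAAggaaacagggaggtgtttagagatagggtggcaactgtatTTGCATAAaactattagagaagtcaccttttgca
Il1rl1, second start, chr1:40439379-40439626: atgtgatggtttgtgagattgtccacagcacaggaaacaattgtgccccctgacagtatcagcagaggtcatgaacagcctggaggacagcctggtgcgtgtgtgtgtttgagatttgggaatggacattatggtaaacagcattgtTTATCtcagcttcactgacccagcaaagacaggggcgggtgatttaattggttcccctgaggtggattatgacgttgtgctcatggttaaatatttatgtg
Il18rap, chr1:40515112-40515361: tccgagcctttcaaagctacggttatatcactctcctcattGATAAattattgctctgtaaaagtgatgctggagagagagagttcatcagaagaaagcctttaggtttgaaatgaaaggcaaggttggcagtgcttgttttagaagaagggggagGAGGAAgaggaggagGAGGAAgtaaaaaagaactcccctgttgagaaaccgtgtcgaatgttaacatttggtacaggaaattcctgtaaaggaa

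The GATAA letters, which blood factors of the GATA family bind, occurred in both Il1rl1 windows and in the Il18rap window, and not in that of Il1r1 shown here. The table held 37 start sites for 29 of the 37 receptor genes. Those of Il7r, Osmr and Tnfrsf1a, and a start each of Il18r1 and Il15ra, had no bases to search. A start of Il11ra1 had 3 bases and that of Il3ra 30, and windows of a gene can overlap, as those of Kit do. GATAA stood in 7 of the 37, against 22.6% of 32851 start sites of all genes. GAGGAA stood in 13 (23.3% of all), TTGCNNAA in 4 (9.56%), TGTGGT in 4 (14.0%) and TTCNNNGAA in 6 (7.02%). The window lengths of the receptors and of all genes were not compared. Of the windows shown here, TTGCNNAA occurred in that of Il1r1 and that of the first Il1rl1 start, and GAGGAA in that of Il18rap. The interferon-stimulated response element (ISRE) stood in 1 of the 37 and in 2.98% of all. Both strands were searched, and overlapping matches of different letters were each counted. A match is a description of the sequence and says nothing of binding.

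Against GMPs the receptor set divided in both directions, with large differences for single genes and a median near 0. In EMCN+ LT-HSCs 13 of 31 tested receptors (41.9%) were higher than in GMPs, against 31.9% of all genes tested, and 11 (35.5%) were lower, against 29.4%. In EMCN- LT-HSCs 12 (38.7%) were higher, against 28.3% of all genes, and 13 (41.9%) were lower, against 24.4%. The median log2 fold change was -0.03 over the receptors and 0.04 over all genes for EMCN+, and -0.10 against 0.03 for EMCN-. The median size of the change, taken without its sign, was 1.13 for the receptors and 0.78 for all genes in EMCN+, and 1.21 and 0.68 in EMCN-. Higher in both fractions than in GMPs were 10 receptors, Kit, Flt3, Il1r1, Il2rg, Il4ra, Il12rb1, Il17ra, Il21r, Il27ra and Ifnar1, and lower in both were 11, Csf1r, Csf2ra, Csf2rb, Csf3r, Il3ra, Il1rl1, Il6ra, Il10ra, Ifnar2, Ifngr1 and Ifngr2. These directions are relative to the bulk of genes: scaling by total counts in place of TMM moved the median gene by 0.83 (EMCN+) and 0.72 (EMCN-) on the log2 scale towards LT-HSCs, and then 82.7% and 84.8% of the called genes were higher in LT-HSCs, against 52.0% and 53.7%. With that scaling 20 of the 31 receptors were higher and 7 lower in EMCN+, against 8973 and 1877 of the 14915 genes tested. In EMCN- 18 were higher and 8 lower, against 8209 and 1473 of all genes. The sign of 6 receptors, Il1rap, Il10rb, Il15ra, Ifnar2, Tnfrsf1a and Tnfrsf1b, then turned from below to above 0 in both comparisons. All of these but Ifnar2 passed as higher in EMCN+ with that scaling (adjusted p from 4.84e-05 to 0.00271), as did Il1rap, Il15ra and Tnfrsf1a in EMCN- (adjusted p = 0.00754, 0.0371 and 0.0406). Il18r1 and Il18rap in EMCN+ and Csf2rb2, Il6st and Il11ra1 in EMCN- also passed as higher.

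**Figure D1:**
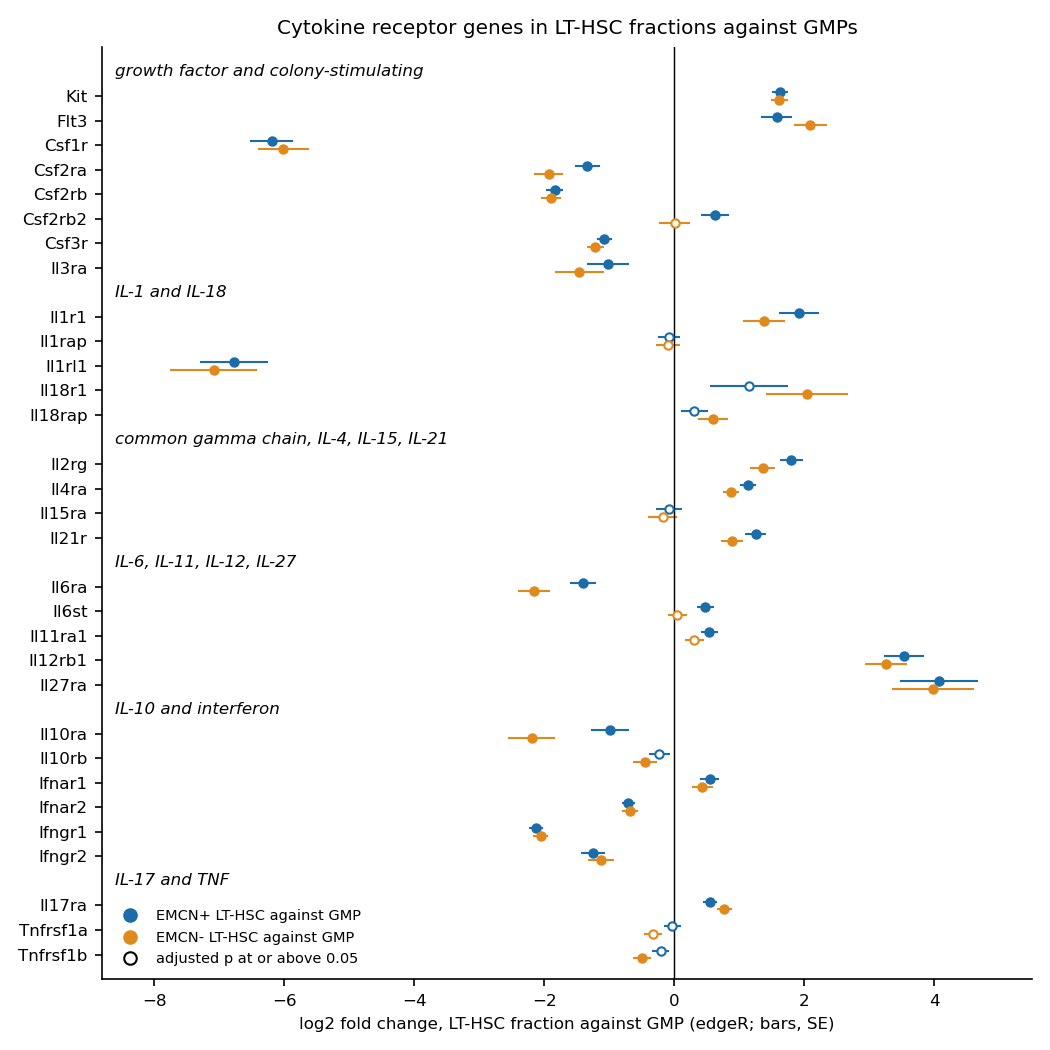
Log2 fold change of each tested receptor gene in EMCN+ (blue) and EMCN- (orange) LT-HSCs against GMPs, grouped by receptor family; bars are standard errors, and open symbols did not pass an adjusted p of 0.05. Csf1r and Il1rl1 stand farthest to the left, below -6, and Il12rb1 and Il27ra farthest to the right, above 3.

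Among the growth factor receptors, the tyrosine kinase genes of stem and early progenitor cells were higher in LT-HSCs, and Csf1r, their relative for M-CSF, was close to absent there. Kit, the stem cell factor receptor, measured 479, 605, 475 and 523 CPM in EMCN+, 513, 461 and 579 CPM in EMCN- and 193, 133, 174 and 179 CPM in GMP libraries. Every LT-HSC library lay above every GMP library, and the EMCN fractions overlapped. The log2 fold change was 1.62 ± 0.12 (adjusted p = 3.19e-10) in EMCN+ and 1.61 ± 0.13 (adjusted p = 1.41e-09) in EMCN- against GMPs. c-kit protein was used to sort the LT-HSCs, and the part of the gate in the Kit RNA levels was not tested. Flt3, the FLT3 ligand receptor of multipotent progenitors, measured 22.0, 25.0, 13.9 and 16.2 CPM in EMCN+, 25.1, 25.7 and 32.9 CPM in EMCN- and 7.89, 3.59, 6.83 and 7.84 CPM in GMP libraries. It was higher than in GMPs by 1.58 ± 0.24 in EMCN+ (adjusted p = 8.16e-06) and by 2.09 ± 0.25 in EMCN- (adjusted p = 6.26e-07), and the lowest LT-HSC values were those of the EMCN+ fraction.

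Csf1r, the M-CSF receptor of monocytes and macrophages, had 51.4, 51.7, 50.5 and 47.4 CPM in GMP libraries, and 0 to 1.23 CPM in EMCN+ and 0.235 to 1.45 CPM in EMCN- libraries. Those LT-HSC levels rested on 26 counts in 4 libraries and 13 counts in 3, against 1119 counts in GMPs. Pooled over libraries, GMPs were 74.6-fold higher than EMCN+ (95% interval of counting error only, 50.6 to 115) and 65.8-fold higher than EMCN- (38.3 to 124). In the fit the log2 fold changes were -6.19 ± 0.33 (adjusted p = 2.28e-11) and -6.02 ± 0.39 (adjusted p = 6.77e-10), the latter -7.05 without EMCN- replicate 2. The monocyte genes Ly6c2 and Ccr2 stood high beside it in GMPs, at 293 to 414 and 55.6 to 81.6 CPM. In LT-HSC libraries they had at most 0.391 and 0.459 CPM. Other genes of the list were lower in GMPs than these. In EMCN+, EMCN- and GMP libraries Cd68 had means of 3.046, 4.217 and 10.01 CPM and Adgre1 0.6494, 0.9365 and 6.656 CPM. Fcgr1 had 0.3145, 0.1048 and 0.8374 CPM in that order. C1qa, at 1.297, 2.129 and 1.374 CPM, was highest in EMCN-. The 7 macrophage and monocyte markers, Csf1r among them, summed to 443.5 to 558.0 CPM in GMP, 3.98 to 9.03 CPM in EMCN+ and 6.34 to 10.2 CPM in EMCN- libraries. Most of the GMP sum was Ly6c2, with a mean of 354.3 CPM. The part of these markers in the Csf1r difference was not tested.

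**Figure D2:**
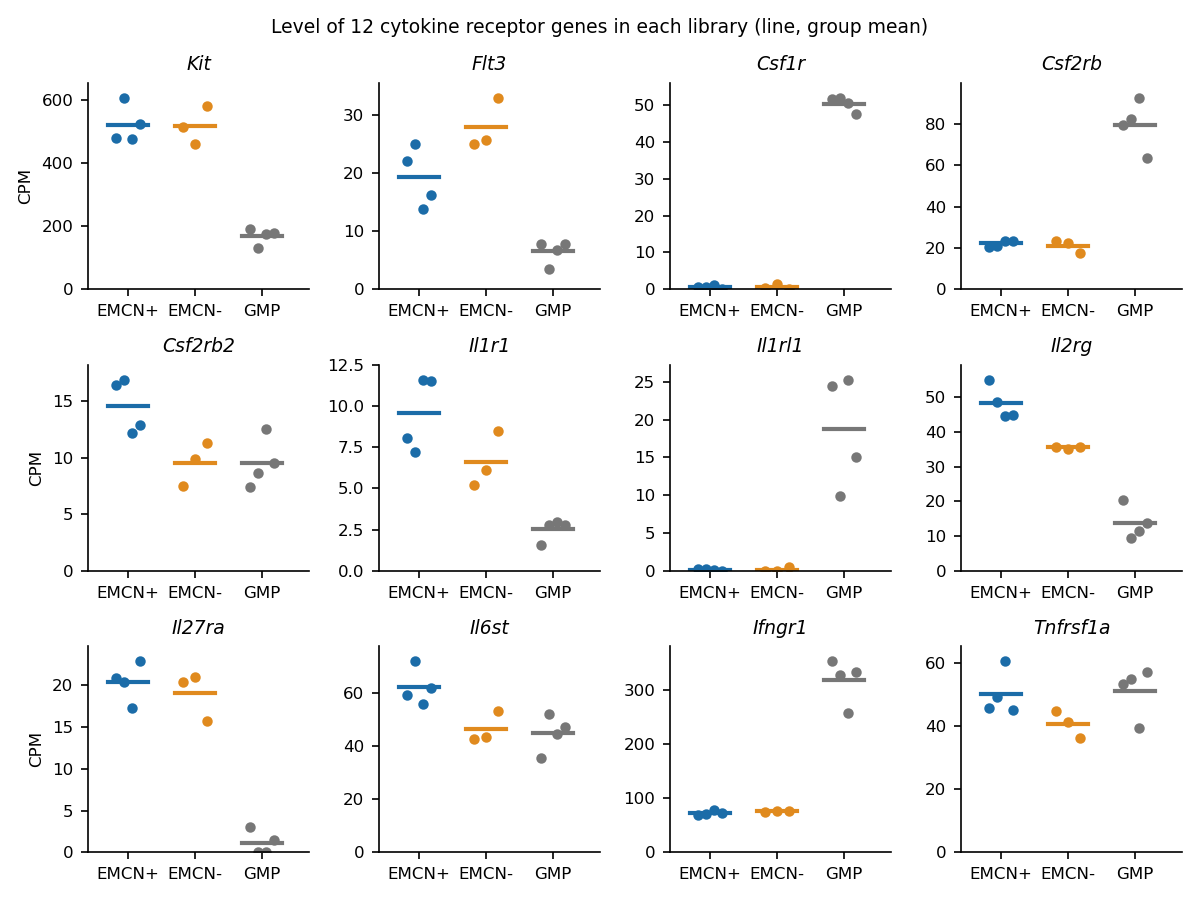
CPM of 12 receptor genes in each library, with a line at the group mean (EMCN+ n = 4, EMCN- n = 3, GMP n = 4). The GMP points lie apart from both LT-HSC fractions for Kit, Flt3, Csf1r, Csf2rb, Il1r1, Il1rl1, Il2rg, Il27ra and Ifngr1, while Tnfrsf1a, Il6st and Csf2rb2 overlap with GMPs in at least 1 fraction.

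The chains for GM-CSF, IL-3 and G-CSF, which act on myeloid progenitors, were lower in LT-HSCs with 1 exception. Csf2rb, the signalling chain shared by the GM-CSF, IL-3 and IL-5 receptors, measured 20.7, 21.1, 23.5 and 23.7 CPM in EMCN+, 23.4, 22.6 and 17.4 CPM in EMCN- and 79.5, 82.3, 92.4 and 63.5 CPM in GMP libraries. No LT-HSC library reached the lowest GMP value, and GMPs were 3.58-fold above EMCN+ (log2 fold change -1.84 ± 0.13, adjusted p = 1.41e-10) and 3.73-fold above EMCN- (-1.90 ± 0.15, adjusted p = 1.18e-09). Csf2ra, the GM-CSF-binding chain, measured 8.84, 7.04, 11.5 and 9.77 CPM in EMCN+, 5.66, 5.33 and 7.52 CPM in EMCN- and 24.6, 26.0, 22.1 and 20.5 CPM in GMP libraries. Its GMP values stood above all LT-HSC values (-1.34 ± 0.19, adjusted p = 3.81e-06, and -1.93 ± 0.23, adjusted p = 3.68e-07). Csf3r, the G-CSF receptor of neutrophil formation, measured 30.8, 31.1, 27.9 and 28.1 CPM in EMCN+, 26.8, 29.2 and 24.4 CPM in EMCN- and 69.6, 63.5, 55.3 and 60.7 CPM in GMP libraries. The fractions overlapped each other and lay below GMPs (-1.08 ± 0.11, adjusted p = 5.27e-08, and -1.21 ± 0.13, adjusted p = 8.63e-08), and the EMCN+ call was lost with total-count scaling (-0.25, adjusted p = 0.094). The 6 neutrophil markers summed to 116.6 to 518.5 CPM in GMP, 1.395 to 2.345 CPM in EMCN+ and 0.705 to 2.58 CPM in EMCN- libraries. Their part in the Csf3r difference was not tested. Il3ra, the IL-3-binding chain, had 2.93 to 7.35 CPM in EMCN+, 1.84 to 4.84 CPM in EMCN- and 7.06 to 11.8 CPM in GMP libraries. It was lower by the test in both fractions (-1.03 ± 0.32, adjusted p = 0.00874, and -1.46 ± 0.37, adjusted p = 0.00245), though EMCN+ and GMP libraries overlapped, and with total-count scaling neither call remained (adjusted p = 0.596 and 0.0799).

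Csf2rb2, the second beta chain of the mouse, which serves IL-3 alone, differed from Csf2rb in direction although the genes lie 20.0 kb apart on chromosome 15. It measured 16.4, 16.9, 12.1 and 12.9 CPM in EMCN+, 7.50, 9.85 and 11.3 CPM in EMCN- and 7.42, 8.65, 12.5 and 9.52 CPM in GMP libraries. All 4 EMCN+ values exceeded the 3 EMCN- values, which lay within the range of GMPs. Against GMPs it was higher in EMCN+ (0.63 ± 0.21, adjusted p = 0.0149) and level in EMCN- (0.00 ± 0.24, adjusted p = 0.994); the EMCN+ call was lost without EMCN+ replicate 2 (adjusted p = 0.0547) or GMP replicate 1 (adjusted p = 0.0541). Of the 31-base words in its exons 28.6% occur also in Csf2rb, and the division of reads between both genes is therefore uncertain.

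In the IL-1 family the signalling receptor Il1r1 and the IL-33 receptor Il1rl1 went opposite ways. Il1r1 measured 8.04, 7.18, 11.6 and 11.5 CPM in EMCN+, 5.20, 6.14 and 8.46 CPM in EMCN- and 1.58, 2.78, 2.96 and 2.80 CPM in GMP libraries. Each LT-HSC library lay above each GMP library (log2 fold change 1.92 ± 0.30, adjusted p = 1.27e-05, and 1.38 ± 0.33, adjusted p = 0.00137). Il1rap, the accessory chain that IL-1, IL-33 and IL-36 receptors share, had 11.8 to 17.4 CPM over all 11 libraries and with TMM scaling passed the test in neither comparison (-0.09 ± 0.17 and -0.10 ± 0.19).

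Il1rl1, known as ST2 and borne by mast cells and basophils among others, measured 24.5, 9.96, 25.3 and 15.1 CPM in GMP libraries. The EMCN+ libraries together held 6 counts of it and the EMCN- libraries 2, both in replicate 4, against 408 counts in GMPs. Pooled, GMPs were 118-fold above EMCN+ (counting interval 53.7 to 323) and 156-fold above EMCN- (42.9 to 1292). The fitted log2 fold changes were -6.77 ± 0.52 (adjusted p = 6.95e-10) and -7.08 ± 0.67 (adjusted p = 2.16e-08), and that of EMCN- was -10.1 without EMCN- replicate 4, which held its 2 counts, and -6.46 without EMCN- replicate 1. The mast cell genes Cpa3, at 118, 48.0, 100.2 and 80.4 CPM, and Ms4a2, at 62.9, 17.1, 54.4 and 36.8 CPM in the same order of GMP libraries, were lowest in the library where Il1rl1 was lowest. In that library Prss34, at 10.8 CPM, and Fcer1a, at 2.45 CPM, were instead the highest of the 4. Mcpt8, a basophil protease gene, had 15.6 to 20.3 CPM in GMP libraries and was at 0 in all 7 LT-HSC libraries. The 6 mast cell and basophil markers summed to 119.5 to 272.4 CPM in GMP, 205.2 to 223.8 CPM in EMCN+ and 190.8 to 224.7 CPM in EMCN- libraries, of which all but 0.195 to 2.60 CPM in LT-HSCs was Gata2, a gene that stem cells also express; their part in the Il1rl1 difference was not tested.

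The IL-18 receptor chains passed the test against GMPs in the EMCN- fraction. Il18r1, the ligand-binding chain, had 2.48, 2.16, 0.780 and 0.977 CPM in EMCN+, 3.83, 3.55 and 1.65 CPM in EMCN- and 0.631, 0.816, 1.14 and 0.373 CPM in GMP libraries. Its GMP level rested on 16 counts. Its EMCN- values stood above all GMP values (2.04 ± 0.63, adjusted p = 0.0095), while those of EMCN+ overlapped with GMPs (1.15 ± 0.60, adjusted p = 0.102; 1.58, adjusted p = 0.0375, in a fit of the 9 libraries of mice 1, 2 and 4 with a mouse term). Il18rap, the accessory chain, had 17.8 to 24.2 CPM in EMCN-, 14.1 to 20.3 CPM in EMCN+ and 8.05 to 17.3 CPM in GMP libraries. The EMCN- difference from GMPs was 0.60 ± 0.23 (adjusted p = 0.0345), and it was lost without EMCN- replicate 2 or 4 or GMP replicate 1 or 4 (adjusted p = 0.0967, 0.130, 0.113 and 0.0563). Neither chain passed between the EMCN fractions (-0.89 ± 0.57, adjusted p = 0.527, and -0.29 ± 0.22, adjusted p = 0.626).

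The common gamma chain and chains that pair with it were higher in LT-HSCs, while Il2ra, Il2rb, Il7r and Il13ra1 had few counts. Il2rg, the gamma chain of the IL-2, IL-4, IL-7, IL-9, IL-15 and IL-21 receptors, measured 55.0, 48.6, 44.6 and 44.8 CPM in EMCN+, 35.8, 35.2 and 35.7 CPM in EMCN- and 20.5, 9.47, 11.4 and 13.8 CPM in GMP libraries. The 3 groups did not overlap, and EMCN+ stood 3.48-fold (log2 fold change 1.80 ± 0.18, adjusted p = 1.94e-08) and EMCN- 2.56-fold (1.36 ± 0.19, adjusted p = 4.19e-06) above GMPs. Il4ra, which binds IL-4 and pairs with the gamma chain, measured 61.2, 67.0, 65.8 and 63.7 CPM in EMCN+, 48.2, 55.7 and 58.0 CPM in EMCN- and 27.6, 34.0, 24.6 and 31.2 CPM in GMP libraries. It too had groups that did not overlap (1.13 ± 0.12, adjusted p = 4.12e-08, and 0.87 ± 0.13, adjusted p = 6.50e-06 against GMPs). Il21r, the IL-21-binding chain and the neighbour of Il4ra at a distance of 24.0 kb on chromosome 7, measured 32.5, 36.7, 31.2 and 28.0 CPM in EMCN+, 25.7, 29.7 and 19.0 CPM in EMCN- and 12.3, 15.8, 12.8 and 13.1 CPM in GMP libraries. Every LT-HSC library was above every GMP library (1.25 ± 0.16, adjusted p = 7.32e-07, and 0.89 ± 0.17, adjusted p = 0.000203).

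Il2rb, the beta chain that IL-2 and IL-15 need, had 0 counts in all 7 LT-HSC libraries, where 3 counts would be 0.0779 CPM over the EMCN+ and 0.177 CPM over the EMCN- libraries, and 5 counts in 1 GMP library. Il7r, the IL-7-binding chain of lymphoid progenitors, had 3 counts in EMCN+, 2 in EMCN- and 6 in GMP libraries. Il2ra, the high-affinity IL-2 chain, had 17 counts in EMCN+ (0.0697 to 0.891 CPM), 28 in EMCN- (0.918 to 3.05 CPM) and 9 in GMP libraries (0 to 0.747 CPM), so its 3 EMCN- libraries were the highest of the 11, with no test. Il13ra1, which joins Il4ra in the IL-13 receptor, had 11, 3 and 5 counts in the same groups. Il15ra, which presents IL-15, was present at 9.14 to 14.8 CPM in all 11 libraries and was not called against GMPs (-0.08 ± 0.20 in EMCN+ and -0.18 ± 0.22 in EMCN-), though with total-count scaling it passed as higher in both fractions (0.76 and 0.54).

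Within the IL-6 and IL-12 families the 2 genes that stood farthest above GMPs were Il12rb1 and Il27ra. Il27ra, the IL-27-binding chain, measured 20.9, 20.4, 17.3 and 22.9 CPM in EMCN+, 20.4, 21.0 and 15.7 CPM in EMCN- and 3.00, 0, 0 and 1.49 CPM in GMP libraries. The 27 GMP counts came from 2 of the 4 libraries, and pooled over libraries EMCN+ was 16.5-fold (counting interval 11.3 to 25.3) and EMCN- 16.0-fold (10.8 to 24.6) higher. The fitted log2 fold changes were 4.07 ± 0.60 (adjusted p = 0.000176) and 3.98 ± 0.63 (adjusted p = 0.000371); they were 5.28 and 5.19 without GMP replicate 1, and 5.37 and 5.31 with limma-voom. Il12rb1, the chain shared by the IL-12 and IL-23 receptors, measured 9.83, 14.2, 12.4 and 9.77 CPM in EMCN+, 8.42, 8.24 and 12.2 CPM in EMCN- and 0.789, 1.31, 0.911 and 0.933 CPM in GMP libraries. GMP levels were low in all 4 libraries, with 22 counts, and the log2 fold changes were 3.53 ± 0.30 (adjusted p = 2.30e-09) and 3.25 ± 0.32 (adjusted p = 3.15e-08).

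Il6st, the gp130 signalling chain of the IL-6, IL-11, IL-27, LIF and oncostatin M receptors, and Il6ra, the IL-6-binding chain, differed in direction. Il6st measured 59.4, 71.9, 55.9 and 62.0 CPM in EMCN+, 42.5, 43.6 and 53.3 CPM in EMCN- and 35.7, 52.1, 44.6 and 47.2 CPM in GMP libraries. EMCN+ values exceeded all GMP values (0.47 ± 0.13, adjusted p = 0.00292), whereas EMCN- values overlapped with them (0.05 ± 0.14, adjusted p = 0.809). Il6ra measured 9.03, 14.1, 15.8 and 9.97 CPM in EMCN+, 8.87, 6.62 and 6.11 CPM in EMCN- and 24.0, 40.2, 35.1 and 31.2 CPM in GMP libraries. The 3 groups did not overlap, and the log2 fold change of Il6ra against GMPs was -1.40 ± 0.20 in EMCN+ (adjusted p = 3.97e-06) and -2.16 ± 0.24 in EMCN- (adjusted p = 1.87e-07). Il11ra1, the IL-11-binding chain, had 52.4 to 76.6 CPM in EMCN+, 55.2 to 57.1 CPM in EMCN- and 38.8 to 52.8 CPM in GMP libraries. It was higher in EMCN+ (0.54 ± 0.13, adjusted p = 0.00122), and in EMCN- the call depended on the fit (0.31 ± 0.14, adjusted p = 0.0764; 0.39, adjusted p = 0.0113, with the mouse as a block). Of the 31-base words in its exons 19.3% also occur in Il11ra2, so its counts may hold reads of that gene. The LIF and oncostatin M chains were low: Lifr had 25, 4 and 42 counts in EMCN+, EMCN- and GMP libraries, and Osmr 6, 2 and 0.

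The receptors for interferons and IL-10 belong to the type II family, and 4 of the 6 in this set form a row on chromosome 16 in the order Ifnar2, Il10rb, Ifnar1 and Ifngr2, with gaps of 0.574, 59.4 and 39.6 kb. Ifngr1, the interferon-gamma-binding chain on chromosome 10, measured 69.2, 71.4, 77.8 and 72.7 CPM in EMCN+, 75.3, 76.9 and 76.4 CPM in EMCN- and 352, 327, 257 and 332 CPM in GMP libraries. LT-HSC libraries spanned a narrow range far under GMPs, which were 4.36-fold above EMCN+ (-2.12 ± 0.11, adjusted p = 4.91e-13) and 4.17-fold above EMCN- (-2.06 ± 0.12, adjusted p = 9.33e-12). Its partner chain Ifngr2 measured 12.6, 13.0, 16.7 and 13.9 CPM in EMCN+, 18.7, 15.5 and 11.3 CPM in EMCN- and 33.4, 42.3, 33.9 and 23.9 CPM in GMP libraries. It was lower in both fractions (-1.25 ± 0.18, adjusted p = 4.90e-06, and -1.13 ± 0.20, adjusted p = 8.94e-05), and with total-count scaling the EMCN- call was lost (adjusted p = 0.094). 

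The type I interferon receptor chains went opposite ways in both fractions. Ifnar1 measured 53.6, 57.3, 62.0 and 55.1 CPM in EMCN+, 39.5, 64.4 and 55.0 CPM in EMCN- and 32.3, 46.0, 42.4 and 36.2 CPM in GMP libraries. It was higher than in GMPs in EMCN+ (0.54 ± 0.14, adjusted p = 0.00232) and EMCN- (0.43 ± 0.15, adjusted p = 0.0231), where the call was lost without EMCN- replicate 2 or 4 or GMP replicate 1 or 4 (adjusted p = 0.270, 0.065, 0.0791 and 0.0603). Ifnar2, the chain that binds interferon more tightly, had 38.2 to 44.6 CPM in EMCN+, 39.9 to 45.9 CPM in EMCN- and 61.0 to 73.6 CPM in GMP libraries. It was lower in LT-HSCs (-0.71 ± 0.11, adjusted p = 6.87e-06, and -0.68 ± 0.12, adjusted p = 5.00e-05), but with total-count scaling its difference was 0.12 and 0.04 in the other direction, with adjusted p = 0.333 and 0.801. Il10ra, the IL-10-binding chain, measured 4.87, 3.70, 5.12 and 2.93 CPM in EMCN+, 1.53, 1.62 and 2.35 CPM in EMCN- and 7.42, 6.86, 9.11 and 9.89 CPM in GMP libraries. GMPs were 1.98-fold above EMCN+ (-0.98 ± 0.29, adjusted p = 0.0063) and 4.58-fold above EMCN- (-2.19 ± 0.36, adjusted p = 3.16e-05); the EMCN+ call was lost with total-count scaling (-0.16, adjusted p = 0.663). Il10rb, the chain shared with IL-22 and interferon-lambda receptors, had 17.4 to 23.1, 14.7 to 17.6 and 17.3 to 26.8 CPM in EMCN+, EMCN- and GMP libraries, and its EMCN- call (-0.46 ± 0.18, adjusted p = 0.0416) was lost without EMCN+ replicate 2, any EMCN- library or GMP replicate 1 or 2 (adjusted p from 0.0515 to 0.155), and its sign turned with total-count scaling (0.26, adjusted p = 0.218).

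With TMM scaling Il17ra and the 2 TNF receptor genes differed by less than 1 on the log2 scale between the cell types. Il17ra, the chain common to IL-17 receptors, measured 69.1, 72.6, 55.7 and 62.7 CPM in EMCN+, 73.3, 75.7 and 79.2 CPM in EMCN- and 48.3, 43.1, 46.2 and 40.9 CPM in GMP libraries. It was higher in both fractions (0.55 ± 0.11, adjusted p = 0.000188, and 0.77 ± 0.12, adjusted p = 1.18e-05). Tnfrsf1a, the broadly expressed TNF receptor with a death domain, measured 46.0, 49.5, 60.7 and 45.3 CPM in EMCN+, 44.8, 41.3 and 36.4 CPM in EMCN- and 53.5, 55.0, 39.6 and 57.3 CPM in GMP libraries. GMPs overlapped with both fractions (-0.03 ± 0.13, adjusted p = 0.865, and -0.33 ± 0.15, adjusted p = 0.0638), and the EMCN- difference passed in the same 9-library fit with a mouse term (-0.44, adjusted p = 0.00592), though with total-count scaling its sign turned (0.39, adjusted p = 0.0406). Tnfrsf1b, the second TNF receptor, which lacks a death domain, measured 41.8, 46.2, 48.2 and 52.2 CPM in EMCN+, 32.1, 48.1 and 34.8 CPM in EMCN- and 53.6, 57.0, 55.3 and 51.7 CPM in GMP libraries. It was lower in EMCN- (-0.50 ± 0.14, adjusted p = 0.00451) and not called in EMCN+ (-0.21 ± 0.12, adjusted p = 0.150); with total-count scaling the EMCN- sign turned (0.21, adjusted p = 0.187).

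Levels divided by exon length allow genes to be ordered within a group. In EMCN+ LT-HSCs Kit stood first with a mean of 58.4 CPM per kb, followed by Ifngr1 (25.6), Il2rg (20.2), Tnfrsf1a (19.4) and Il11ra1 (14.7). The first of the 37 in EMCN- LT-HSCs were Kit (58.1 CPM per kb), Ifngr1 (26.8), Tnfrsf1a (15.8) and Il2rg (14.9). In GMPs Ifngr1 led with 111 CPM per kb, ahead of Ifnar2 (20.3), Tnfrsf1a (19.8), Kit (19.0) and Csf3r (17.3). Csf1r took place 10 in GMPs, at 8.71 CPM per kb, and place 30 in EMCN+, at 0.107. Il27ra took place 13 in both LT-HSC fractions and place 29 in GMPs. The paired chains of a receptor also differed in level: in GMPs the mean per kb was 111 for Ifngr1 against 8.86 for Ifngr2, and in EMCN+ 5.61 for Il6st against 1.42 for Il6ra.

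**Figure D3:**
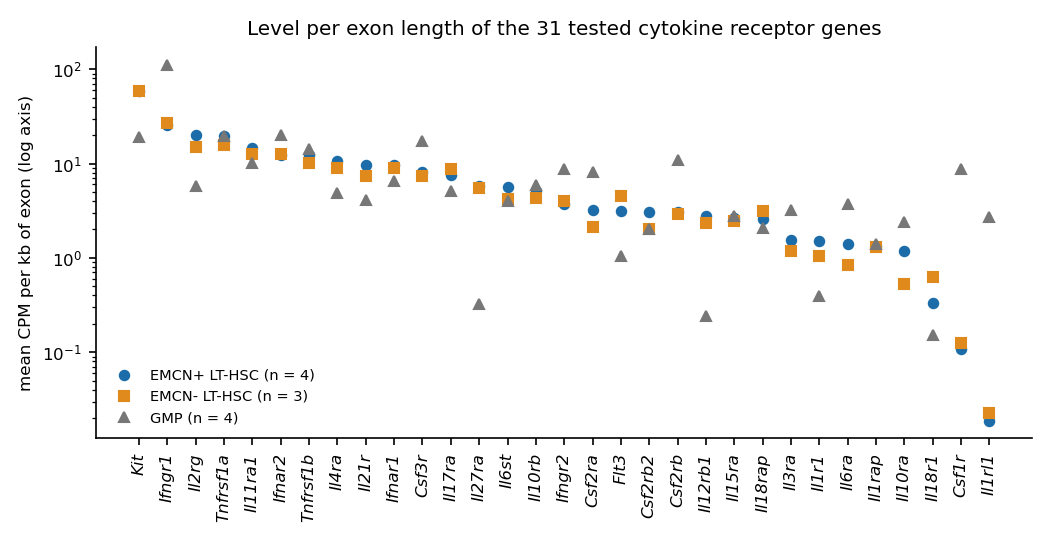
Mean CPM per kb of exon (log axis) of the 31 tested receptor genes in EMCN+ (circles), EMCN- (squares) and GMP (triangles) libraries, ordered by the EMCN+ level. The LT-HSC symbols lie close together for most genes, while GMP symbols lie apart for Ifngr1, Il27ra, Il12rb1, Csf1r and Il1rl1.

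Between EMCN+ and EMCN- LT-HSCs no receptor of the 31 tested passed the adjusted threshold with edgeR, DESeq2 or limma-voom, against 1.96% of all genes (293 of 14915) with edgeR. These fits used the main low-count filter and no mouse term. At an unadjusted p under 0.05 there were 11 of 31 (35.5%), against 13.9% of all genes. The median log2 fold change was 0.22 over the receptors and 0.00 over all genes, with 23 receptors above and 8 below 0. In 7 receptors (22.6%), Csf2rb2, Il2rg, Il4ra, Il6ra, Il6st, Il10ra and Tnfrsf1a, every EMCN+ library lay above every EMCN- library, against 7.25% of all genes. In 2 (6.45%), Flt3 and Il17ra, every EMCN+ library lay below every EMCN- library, against 6.99% of all genes.

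Of these, Il10ra had the lowest adjusted p and the largest difference, 4.15 ± 1.03 CPM (SD, n = 4) in EMCN+ against 1.83 ± 0.451 CPM (SD, n = 3) in EMCN-, with a log2 fold change of 1.21 ± 0.36 (adjusted p = 0.0988). The EMCN- level rested on 30 counts. Il6ra followed with 12.2 ± 3.25 against 7.20 ± 1.47 CPM (0.76 ± 0.24, adjusted p = 0.123 by edgeR), where the values 9.03 and 8.87 of mouse 1 were nearly equal. With no low-count filter Il6ra passed (adjusted p = 0.0321 by edgeR). Il6st, with which Il6ra forms the IL-6 receptor, had 62.3 ± 6.87 against 46.5 ± 5.95 CPM (0.43 ± 0.14, adjusted p = 0.133 by edgeR). Il2rg had 48.2 ± 4.88 against 35.6 ± 0.324 CPM (0.44 ± 0.18, adjusted p = 0.251 by edgeR). In a paired fit of the 7 LT-HSC libraries, with the mouse as a block, Il6st (0.47, adjusted p = 0.0226) and Il2rg (0.46, adjusted p = 0.0254) passed, and 925 genes were called. With the same block and all 11 libraries no receptor passed.

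The receptors that did not overlap in the other direction included Flt3, a gene associated with the step from stem cell to multipotent progenitor. It had 19.3 ± 5.13 CPM in EMCN+ and 27.9 ± 4.35 CPM in EMCN- (-0.51 ± 0.23, adjusted p = 0.315 by edgeR), and EMCN+ replicate 2, at 25.04 CPM, and EMCN- replicate 1, at 25.09 CPM, were nearly equal. Il17ra had 65.0 ± 7.44 and 76.1 ± 2.96 CPM (-0.22 ± 0.12, adjusted p = 0.406 by edgeR). Kit was level, at 521 ± 60.6 and 518.0 ± 59.2 CPM (0.01 ± 0.13, adjusted p = 0.987 by edgeR). Ifngr1 was likewise close, at 72.8 ± 3.62 and 76.2 ± 0.810 CPM (-0.07 ± 0.11, adjusted p = 0.868 by edgeR). Beside these differences, 4 of 8 LT-HSC markers were higher and none lower in EMCN+ by the test. Of 6 megakaryocyte markers 1 was higher and 2 were lower. In the T and NK cell list and in the erythroid list 1 marker each was lower and none higher by the test. Of the same lists, Klrb1c (means 4.65 and 1.835 CPM) and Hbb-bt (14.8 and 5.82 CPM) were instead higher in EMCN+ than in EMCN-. The erythroid sum was 15.4 to 19.4 CPM in EMCN+ and 10.3 to 11.3 CPM in EMCN-. The part of these markers in the receptor values was not tested.

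**Figure D4:**
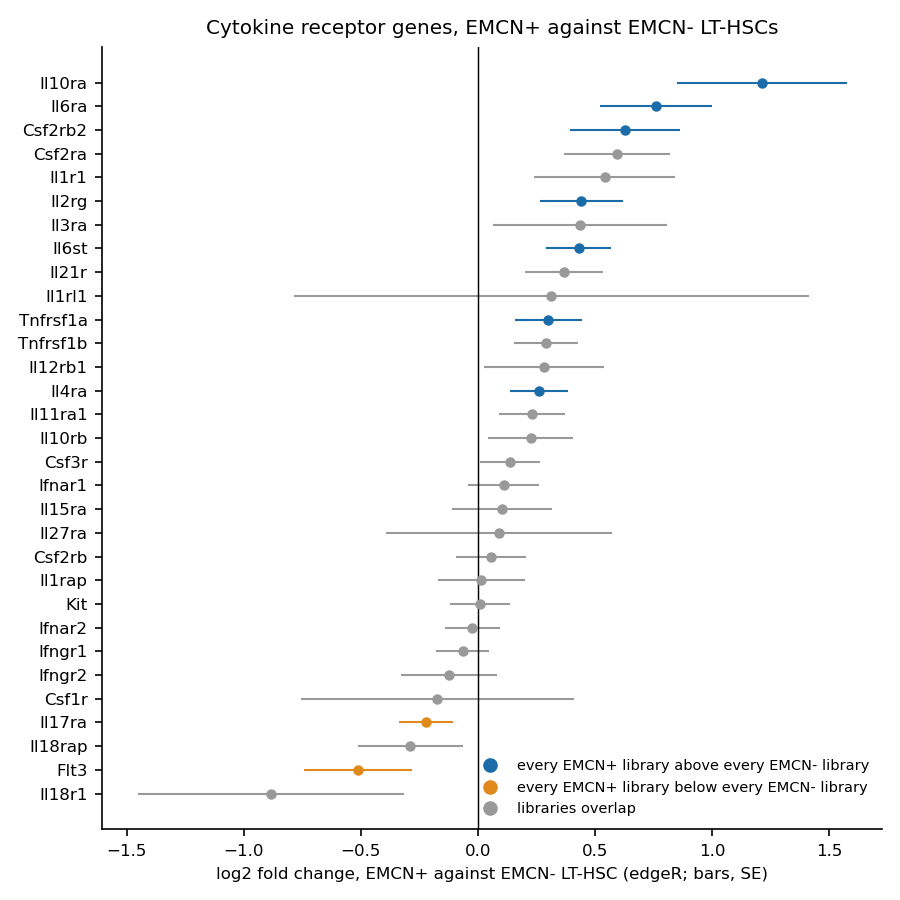
Log2 fold change of the 31 tested receptor genes between EMCN+ and EMCN- LT-HSCs, with standard errors, coloured by whether the libraries of the fractions overlap. None passed an adjusted p of 0.05 in this fit, which held no mouse term. Il10ra is highest at 1.21 and Il18r1 lowest at -0.89.

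The genes that carry the signal onward were described from lists of pathway genes. Their counts stand beside 31.9% higher and 29.4% lower of all genes tested in EMCN+, and 28.3% and 24.4% in EMCN-. Counts with total-count scaling stand beside 8973 higher and 1877 lower of 14915 genes in EMCN+, and 8209 and 1473 in EMCN-. Of 12 genes for JAK kinases, STAT factors and Irf9, all tested, 11 were higher in EMCN+ than in GMPs and 1, Tyk2, was lower (-0.35 ± 0.14, adjusted p = 0.0326 by edgeR). In EMCN- 11 were higher and none lower. The median log2 fold change of the list was 1.15 in EMCN+ and 0.95 in EMCN-, against 0.04 and 0.03 over all genes. Stat4, the main STAT of IL-12 signalling, had 85.6 ± 10.4, 75.8 ± 3.97 and 19.4 ± 3.39 CPM (SD) in EMCN+, EMCN- and GMP libraries. Jak3, the kinase that binds the common gamma chain, was higher by 1.78 ± 0.12 in EMCN+ and 1.65 ± 0.12 in EMCN-, and Irf9, a partner of Stat2 after type I interferon, by 1.65 ± 0.11 and 1.37 ± 0.12. Between the LT-HSC fractions no gene of the list was called. With the size factors of DESeq2 (RLE) 11 were again higher in each fraction, and with total-count scaling all 12 were.

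**Figure D5:**
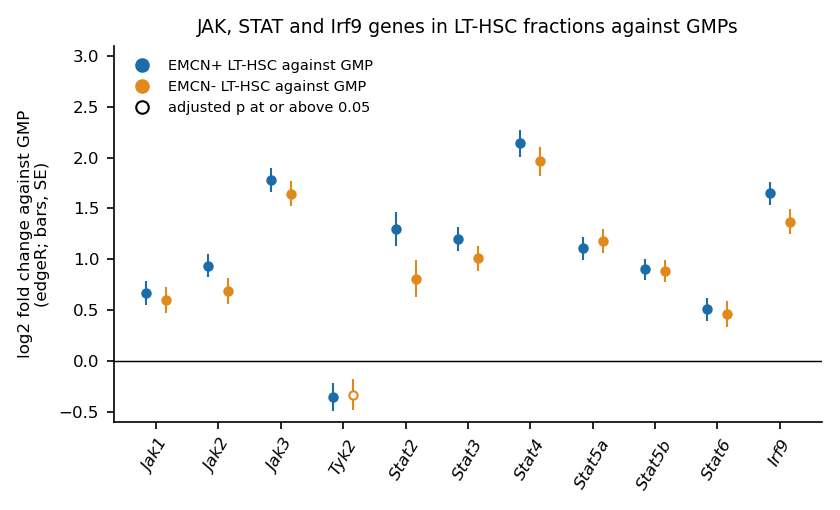
Log2 fold change of 11 of the JAK, STAT and Irf9 genes in EMCN+ (blue) and EMCN- (orange) LT-HSCs against GMPs, with standard errors; the open symbol did not pass an adjusted p of 0.05. All but Tyk2 lie above 0 in both fractions, with Stat4 highest at 2.14 and 1.96.

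Of 25 genes listed as feedback or other inhibitors of cytokine signalling, all tested, 18 were higher and 1 lower in EMCN+ than in GMPs. In EMCN- 15 were higher and 1 lower, or 11 and none without EMCN- replicate 1. The list's median was 0.63 and 0.40, and with total-count scaling 24 were higher and none lower in each fraction. Socs2, a STAT5-induced suppressor of cytokine signalling, had 38.3 ± 7.26 CPM in EMCN+, 20.1 ± 2.77 CPM in EMCN- and 0.557 ± 0.193 CPM in GMP libraries. It was also the gene of this list that was called between the LT-HSC fractions (0.92 ± 0.18, adjusted p = 0.0094 by edgeR). Cish, another STAT5 target of the same family, had 41.6 ± 5.17, 28.9 ± 4.66 and 0.795 ± 0.639 CPM in the same order. Socs5 was higher than in GMPs by 2.74 ± 0.15 in EMCN+ and 2.43 ± 0.16 in EMCN-, and Spred1, an inhibitor of Ras signalling, by 1.57 ± 0.11 and 1.39 ± 0.11.

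Of 32 adaptor and NF-kB genes downstream of the TNF and IL-1 receptors, 13 were higher and 4 lower in EMCN+, and 12 higher and 3 lower in EMCN- than in GMPs, with medians of 0.20 and 0.24; with total-count scaling 29 were higher and none lower in each fraction. Traf1, a TNF receptor adaptor, had 16.4 to 20.5 CPM in EMCN+ and 6.73 to 12.1 CPM in EMCN-, and 0.911 CPM in 1 GMP library and 0 in the other 3. Its log2 fold changes were 6.50 ± 0.54 and 5.61 ± 0.58, and 10.1 and 9.16 without that GMP library, replicate 3. Nfkbia, the NF-kB inhibitor, was higher by 1.35 ± 0.14 and 1.36 ± 0.15. Irak3, a brake on IL-1 receptor signalling, had 82.7 ± 6.35 CPM in EMCN+ and 61.3 ± 7.00 CPM in EMCN- (0.43 ± 0.11). Its adjusted p by edgeR was just under the threshold (0.05 when rounded), and the call was lost without EMCN+ replicate 2, 3 or 4, EMCN- replicate 1 or 4 or any GMP library (adjusted p from 0.0552 to 0.296). It was also lost with the mouse as a block (adjusted p = 0.0532 with all 11 libraries and 0.0656 with 9), with no low-count filter (0.0507), with no robust dispersion (0.0618) and with the 2 LT-HSC groups alone (0.0821). Of 38 cytokine ligand genes 13 were tested, with 9 higher and 2 lower in EMCN+ and 8 higher and none lower in EMCN-, and medians of 1.5 and 0.81. Ltb, for lymphotoxin beta, had 35.9 ± 4.37, 22.5 ± 9.40 and 0.150 ± 0.183 CPM, and Il18 was higher by 3.01 ± 0.37 and 3.15 ± 0.39, Ebi3 by 1.68 ± 0.18 and 1.31 ± 0.19, and Flt3l by 2.80 ± 0.43 and 2.35 ± 0.46. 

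Among 27 further cytokine receptors 12 were tested, with 6 higher and 3 lower in EMCN+ and 7 higher and 4 lower in EMCN- than in GMPs, and medians of 0.91 and 0.85. Il17re had 7.02 to 11.5 CPM in EMCN+ and 5.81 to 10.5 CPM in EMCN-, and 0 counts in all 4 GMP libraries. Ghr, the growth hormone receptor, was higher by 5.28 ± 0.59 and 4.96 ± 0.62 (6.20 and 5.88 without GMP replicate 3), and Il31ra lower (-6.20 ± 0.74 and -5.19 ± 0.81; the first was -7.05 if EMCN+ replicate 1 was left out, the second -8.63 if EMCN- replicate 1 was). Of 6 genes that shed receptors from the cell surface or regulate shedding, 4 were higher in each fraction and 1, the sheddase Adam17, lower; with total-count scaling all 6 were higher.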

How the data were processed

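Per the submitters' processing notes, Salmon and cutadapt were used. The authors deposited an estimated count for each gene in 11 libraries, and their genome build, annotation, tool versions, strand setting and any rounding are not given in the sources used here. Per the labels' protocols, the libraries came from a stranded kit for small amounts of total RNA (SMARTer Pico V2) and were sequenced from both ends. The deposited values were whole numbers and were used as counts after rounding as a safeguard. Genes were kept by edgeR's filterByExpr by group with a minimum count of 10, which left 14915 genes. The main model held the group alone over all 11 libraries, with TMM factors and a robust quasi-likelihood fit (R 4.3.3, edgeR 4.0.16), and the fits were tested on simulated data. DESeq2 1.42.0 and limma 3.58.1 (voom), RLE and total-count scaling, other filters, models with the mouse as a block and models without each library were tried. The mouse number in the labels pairs samples: the mean correlation of same-mouse deviations was 0.198 between the LT-HSC fractions (3 pairs), 0.133 between EMCN- and GMP (3 pairs) and 0.0253 between EMCN+ and GMP (4 pairs). For libraries of different mice the means were -0.0656, -0.0442 and -0.00834 in that order. Between the LT-HSC fractions different mice gave -0.246 to 0.19, and the same mouse 0.165 to 0.223.

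Libraries of a group differed by 8.09 to 33.6 times the sampling variance of counts (chi-square per degree of freedom), so none was a repeat of another. The 37 genes and the pathway and marker lists were chosen with earlier results of these data known. Within the comparisons with GMPs up to 8 called receptors per direction with the largest change, and 12 receptors of well-known ligands in any case, are given in full, and up to 4 called genes with the smallest p of each pathway list and comparison; some genes of these lists are counted in them and not reported singly here. Identifiers of all 37 matched GENCODE M21 on GRCm38 with their version, which gave coordinates and exon lengths. Intervals of pooled counts are exact 95% intervals and cover counting error only. Without a stated strand setting, reads of Csf1r, Il3ra, Il1rap, Il4ra, Il6ra, Il11ra1 and Il27ra cannot be told from those of antisense genes that overlap their exons, and Il2rg, Ifnar2 and Il10rb overlap readthrough genes on their own strand.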

Additional observations from a re-analysis of the deposited data

Results flagged for a closer look

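Il1r1 in GMPs had 1 library apart from the rest: replicate 1 measured 1.578 CPM, against 2.78 to 2.96 CPM in the other 3, and the gap was 0.866 of the group's range, above Dixon's critical value for 4 samples. Of 62 groups of 4 libraries that were examined over the 31 tested receptors this was the 1 that passed, and chance alone would mark about 1 in 20. Il1r1 remained higher in LT-HSCs than in GMPs without that library.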

How the results depend on the processing

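Single receptors kept their direction and their side of the threshold in 1955 of 2037 recomputed values. These pool all comparisons, including EMCN+ versus EMCN-, where no receptor was called in the main fit. Many of the refits left out 1 library. Total-count scaling alone turned the sign of 14 receptor values, and 5 others gained and 5 lost their call. The number of genes called between EMCN+ and EMCN- was 293, and 529 with no filter on low counts, 451 with DESeq2 and 925 with the mouse as a block in the LT-HSC libraries alone; leaving out single libraries gave 55 to 338, the lowest without EMCN- replicate 1 (105, 184, 194 and 191 without EMCN+ replicate 2 or 4 and EMCN- replicate 2 or 4). Receptors called numbered 1 with no filter (Il6ra, 0.78, adjusted p = 0.0321) and 2 with that replicate block. The share of called genes that were higher in EMCN+ was 39.2%, and 76.3% with total-count scaling, which moved the median by 0.11, 50.8% with limma-voom and 56.1% with those 2 groups alone. Receptors called against GMPs numbered 23 to 24 (EMCN+) and 22 to 27 (EMCN-) with single libraries left out. Among the receptors and pathway genes named, the block changed no call other than those given beside their values.

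Signs turned with total-count scaling for Ifnar2 (0.0858) and Ifngr1 (0.042) between the LT-HSC fractions, for Il1rap (0.74), Il10rb (0.59), Il15ra (0.76), Ifnar2 (0.12), Tnfrsf1a (0.80) and Tnfrsf1b (0.62) in EMCN+ against GMP, and for Il1rap (0.61), Il10rb (0.26), Il15ra (0.54), Ifnar2 (0.0381), Tnfrsf1a (0.39) and Tnfrsf1b (0.21) in EMCN- against GMP. Kit between the fractions was -0.00455 with those 2 groups alone. With single libraries left out, values near 0 crossed it between the fractions for Csf1r (-0.59 to 0.83), Csf2rb (-0.0563 to 0.134), Ifnar1 (-0.0698 to 0.276), Ifnar2 (-0.05996 to 0.0344), Ifngr2 (-0.285 to 0.0533), Il1rap (-0.135 to 0.0991), Il1rl1 (-0.31 to 3.32), Il27ra (-0.027 to 0.16) and Kit (-0.0748 to 0.0953). In EMCN+ against GMP they did so for Il15ra (-0.207 to 0.0136) and Tnfrsf1a (-0.135 to 0.0221), and in EMCN- against GMP for Csf2rb2 (-0.124 to 0.158), Il1rap (-0.201 to 0.05001) and Il6st (-0.0576 to 0.124). The cause was not tested. Depth limits Il1rl1 and Csf1r in LT-HSCs and Il27ra, Il12rb1 and Il18r1 in GMPs, which rest on under 30 counts a group.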
